A study of Mus musculus with 4 samples.

Results

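Cadherins and protocadherins are the calcium-dependent adhesion proteins by which developing neurons hold to, sort from and recognise one another, and the genes described here are those whose symbol begins with Pcdh or with Cdh and a digit, apart from Cdh5 and Pcdh11x. On the arrays 55 such genes had a probe set annotated to that gene alone, of 19938 genes in all. For a gene with several probe sets the one with the highest mean over the arrays was taken. Of the 55 genes, 38 reached the filter value of 7.11 on the log2 scale, the median of all probe set means, as did 11013 genes altogether. The remaining 17 are accounted for at the end of the results.

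RNA came from C57BL/6J mouse fetuses at embryonic day 18, and 4 arrays were hybridised: hippocampus after maternal ethanol, hippocampus after maternal phosphate-buffered saline (PBS), forebrain after maternal ethanol and forebrain after maternal PBS. The dams received ethanol by the intragastric route (2.9 g/kg daily, 15% by volume) for 5 days, from embryonic day 8 to 12, or PBS by the same route. Each group is 1 array, so a difference within a tissue or within a treatment has no replicate error and no p-value. The labels do not say whether fetuses were pooled or which litters and sexes the RNA came from, so these cannot be told apart from treatment or tissue.

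Classical cadherins join cells through extracellular cadherin repeats and hold the actin cytoskeleton through catenins. Type I members bind strongly and carry general cell cohesion, whereas type II members, expressed in patches across the developing brain, sort neurons into nuclei, layers and circuits. Protocadherins have more cadherin repeats and no catenin site. The delta subfamily acts in axon outgrowth and synapse formation, and the alpha, beta and gamma genes lie in a tandem array from which single neurons express different combinations that serve self-recognition.

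Promoter windows from RefSeq (assembly GRCm38.p6), of 250 bases before and 50 after the gene start, are shown for 4 members on which the results below turn: Pcdh17, Pcdh10 and Cdh18, which read lowest in PBS hippocampus, and Cdh12, the neighbour of Cdh18 on chromosome 15, which read lowest in ethanol hippocampus. Capitals mark a CCAAT box, a GC box spelled GGGCGG or a TATA box spelled TATAAA on either strand, with no match overlapping another here, and all windows are on the plus strand, at chr14:84443313-84443612, chr3:45378148-45378447, chr15:23036213-23036512 and chr15:21111202-21111501 in the order given.
Pcdh17: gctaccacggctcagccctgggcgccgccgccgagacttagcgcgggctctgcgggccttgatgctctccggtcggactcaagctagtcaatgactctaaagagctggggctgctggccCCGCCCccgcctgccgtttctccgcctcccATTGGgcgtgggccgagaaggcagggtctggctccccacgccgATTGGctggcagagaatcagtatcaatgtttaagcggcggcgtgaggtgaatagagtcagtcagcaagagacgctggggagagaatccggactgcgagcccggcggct
Pcdh10: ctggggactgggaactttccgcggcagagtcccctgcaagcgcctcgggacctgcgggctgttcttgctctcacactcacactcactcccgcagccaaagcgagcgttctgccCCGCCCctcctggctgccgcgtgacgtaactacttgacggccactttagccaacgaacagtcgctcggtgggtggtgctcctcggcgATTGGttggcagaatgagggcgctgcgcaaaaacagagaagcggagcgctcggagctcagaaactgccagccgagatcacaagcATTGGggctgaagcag
Cdh18: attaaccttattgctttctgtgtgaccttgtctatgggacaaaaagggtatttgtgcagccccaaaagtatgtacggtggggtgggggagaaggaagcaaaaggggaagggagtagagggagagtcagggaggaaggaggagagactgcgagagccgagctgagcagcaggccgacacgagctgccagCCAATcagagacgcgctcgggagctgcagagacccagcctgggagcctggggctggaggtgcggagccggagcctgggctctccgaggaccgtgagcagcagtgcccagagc
Cdh12: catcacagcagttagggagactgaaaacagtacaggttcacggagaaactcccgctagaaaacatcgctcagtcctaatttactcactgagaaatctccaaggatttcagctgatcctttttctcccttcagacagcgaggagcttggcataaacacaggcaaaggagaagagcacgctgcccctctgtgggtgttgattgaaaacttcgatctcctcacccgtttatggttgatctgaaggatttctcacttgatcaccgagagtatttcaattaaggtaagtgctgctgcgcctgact
The Pcdh17 and Pcdh10 windows hold a GC box and more than 1 CCAAT motif, the Cdh18 window a single CCAAT motif and the Cdh12 window none of these motifs. CpG dinucleotides number 26 in the Pcdh17 window, 24 in the Pcdh10 window, 12 in the Cdh18 window and 9 in the Cdh12 window. Windows were found for 17 of the 38 kept members. Of their 20 windows, 65% held CCAAT, 40% GGGCGG and 10% TATAAA, against 37.4%, 35.7% and 13.6% of all 32851 windows. The median number of CpG dinucleotides was 18 in these windows, against 7 in all windows. The member windows came from kept genes only, and none from the beta cluster, Cdh2, Cdh4, Cdh11 or Cdh13. All windows were not limited to kept genes, so the sets are unlike.

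The difference between 2 arrays was read against all 11013 kept genes. In hippocampus the ethanol minus PBS differences had a median of -0.08 and a standard deviation of 0.187 over genes on the log2 scale, against -0.01 and 0.0941 in forebrain. As a yardstick, other probe sets of the same gene above the filter value were set against the one used (1191 pairs in 681 genes). The median disagreement was 0.08 in the hippocampal ethanol difference and 0.05 in the forebrain one. Both probe sets of a pair were read on the same arrays, so error between arrays is not measured by it. Markers of hippocampal fields were divided: of 7 kept markers, 2 read higher in hippocampus than in forebrain after ethanol and 3 after PBS. Zbtb20, a transcription factor of hippocampal pyramidal neurons, was higher by 0.23 after ethanol and 0.35 after PBS (limma 0.29 over both, SE 0.059, adjusted p = 0.0768), while Prox1, a marker of dentate granule cells, differed by -0.33 and -0.16. Meningeal fibroblast markers read lower in hippocampus for 9 of 9 after both treatments, with mean levels of 7.84 and 8.49 (ethanol) and of 7.56 and 8.63 (PBS) in hippocampus and forebrain.

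None of the 38 kept cadherins and protocadherins was 1.5-fold apart between any pair of arrays compared, and their largest difference was 0.54. Below the filter, Cdh1 was past that mark between tissues after PBS (-0.63). In hippocampus 0 of the 38 were 1.5-fold higher and 0 lower after ethanol, where 0.49% and 0.427% of all kept genes were. In forebrain the 38 gave 0 and 0 after ethanol (all kept genes 0.0454% and 0.0272%). Between hippocampus and forebrain they again gave 0 higher and 0 lower, both after ethanol (all kept genes 0.154% and 0.536%) and after PBS (0.0908% and 1.19%). Past a lower mark of 0.32 on the log2 scale, 5 members were higher in hippocampus after ethanol (Pcdh17, Cdh7, Pcdh10, Pcdh15 and Cdh18), or 13.2%, against 3.17% of all kept genes. Past the same mark 3 members were lower (Pcdhb18, Pcdhb16 and Cdh12), or 7.89%, against 5.95%. In forebrain 0 members passed it on either side, against 0.336% and 0.191%.

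The 2 tissues together allowed a limma test of ethanol, with a tissue term and Benjamini-Hochberg adjustment over all kept genes. At an adjusted p under 0.05 it called 0 members higher and 0 lower (0% and 0% of all kept genes), and the lowest adjusted p of a member was 0.51. Unadjusted p under 0.05 was reached by 3 members higher (Pcdh17, Cdh7 and Cdh18) and 1 lower (Pcdhb5), or 7.89% and 2.63%, against 3.41% and 6.36% of all kept genes. For the tissues over both treatments, 0 members were higher in hippocampus and 0 lower at an adjusted p of 0.05 (0.109% and 1.02% of all kept genes). Unadjusted, the limma p was under 0.05 for 2 members higher in hippocampus (Cdh2 and Cdh8) and 12 lower, or 5.26% and 31.6%, against 3.27% and 11.9%. Only 1 residual degree of freedom supports these tests, and any ethanol effect that differs between the tissues enters the error. The standard errors (SE) given below therefore rest mostly on spread borrowed from all kept genes (6.53 prior degrees of freedom), not on the gene's own arrays.

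**Figure D1:**
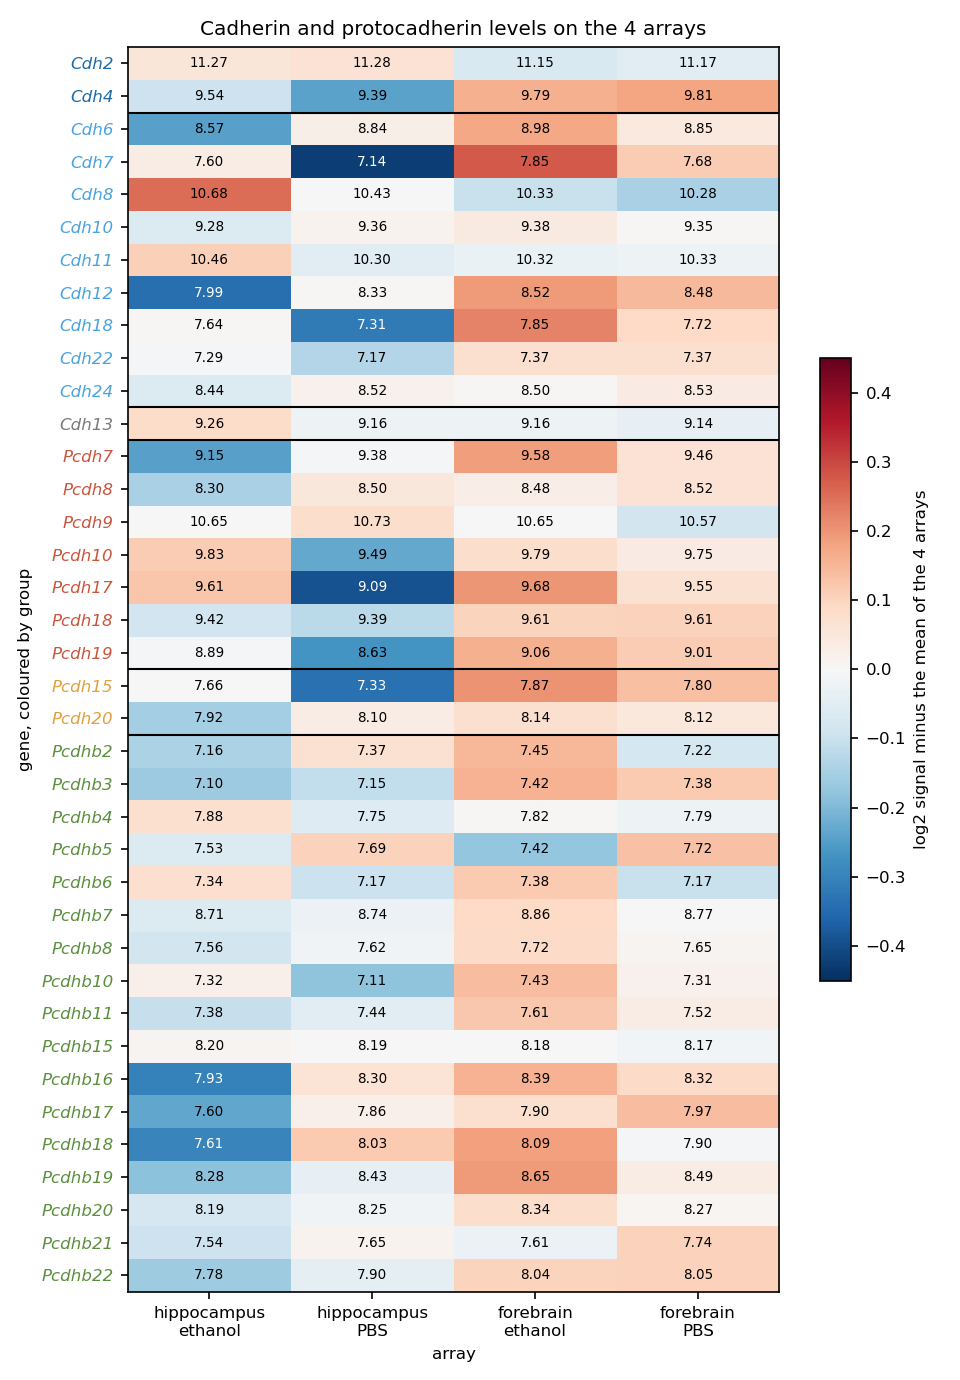
Log2 signal (numbers) of the 38 kept cadherins and protocadherins on the 4 arrays, in rows by structural group, with the colour giving each value minus the gene's mean over the arrays. PBS hippocampus stands low for Cdh7, Cdh18, Pcdh17 and Pcdh15, and ethanol hippocampus for Cdh12, Cdh6, Pcdh7 and Pcdhb16 to Pcdhb19.

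Among type I cadherins, Cdh2 (N-cadherin), which builds the junctions of neural progenitors and contributes to synapses, read 11.27 in ethanol hippocampus, against 11.28 in PBS hippocampus, and 11.15 in ethanol forebrain, against 11.17 in PBS forebrain. The hippocampus arrays thus lay above the forebrain arrays after both treatments, by 0.13 after ethanol and 0.12 after PBS. On the deposited scale ethanol differences were at most 0.02 in size. Quantile normalization gave -0.08 in forebrain. Centring arrays on the median of the kept genes (chosen after seeing the data) gave 0.09 in hippocampus. limma's tissue difference was 0.12 (SE 0.047, adjusted p = 0.281). Cdh4 (R-cadherin), which also pairs with N-cadherin, went the other way between tissues. It read 9.54 in ethanol hippocampus, against 9.79 in ethanol forebrain, and 9.39 in PBS hippocampus, against 9.81 in PBS forebrain. Both hippocampus arrays lay below both forebrain arrays. The tissue difference of Cdh4 was -0.34 (limma, SE 0.073, adjusted p = 0.0891), the lowest adjusted p among the members. This call depended on the setting: the adjusted p was 0.032 after quantile normalization and 0.045 with the 75th percentile filter, and 0.0578 to 0.215 in the other settings in which Cdh4 had the lowest p of the members.

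Type II cadherins differed among themselves. Their hippocampal ethanol differences ran from -0.34 to 0.46, with 5 of 9 higher and a median of 0.12. Of all kept genes 30.7% were higher, with a median of -0.08. Quantile normalization, or centring arrays on the median of the kept genes (chosen after seeing the data), gave 7 of 9 higher. Cdh7 (probe set 10349184), first studied in migrating neural crest of the chick, read 7.60 in ethanol hippocampus, against 7.14 in PBS hippocampus, and 7.85 in ethanol forebrain, against 7.68 in PBS forebrain. PBS hippocampus was the low array, and the ethanol array of each tissue was above its PBS array. The ethanol differences were 0.46 in hippocampus (1.37-fold) and 0.16 in forebrain, and limma's value over both tissues was 0.31 (SE 0.099, adjusted p = 0.51). Between tissues, Cdh7 had the largest difference of any kept member, -0.54 after PBS, and -0.24 after ethanol (limma -0.39 over both, SE 0.099, adjusted p = 0.127). Cdh18, a type II cadherin of the nervous system, had the same order of arrays, with 7.64 in ethanol hippocampus against 7.31 in PBS hippocampus, and 7.85 in ethanol forebrain against 7.72 in PBS forebrain. Its ethanol difference in hippocampus was 0.33 from this probe set and 0.43 from the other, and 0.13 and 0.21 in forebrain.

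Cdh12 and Cdh6 had another low array. Cdh12, a neuronal type II cadherin, read 7.99 in ethanol hippocampus, against 8.33 in PBS hippocampus, and 8.52 in ethanol forebrain, against 8.48 in PBS forebrain. Its difference after ethanol was -0.34 in hippocampus and 0.05 in forebrain. Ethanol hippocampus lay 0.53 below ethanol forebrain, the largest tissue difference after ethanol among the kept members (limma over both treatments -0.34, SE 0.106, adjusted p = 0.201). Cdh6, which marks areal and nuclear borders in the embryonic forebrain, read 8.57 in ethanol hippocampus, against 8.84 in PBS hippocampus, and 8.98 in ethanol forebrain, against 8.85 in PBS forebrain. Ethanol hippocampus was the lowest and ethanol forebrain the highest of the arrays for both genes. In the RefSeq order, 1 protein-coding gene lies between Cdh12 and Cdh18 on chromosome 15, and the hippocampal ethanol differences of these neighbours were opposite in sign, at -0.34 and 0.33.

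Cdh8 and Cdh11 are neighbours on chromosome 8 with no protein-coding gene between them. Cdh8, which labels subsets of cortical and striatal neurons, read 10.68 in ethanol hippocampus, against 10.43 in PBS hippocampus, and 10.33 in ethanol forebrain, against 10.28 in PBS forebrain. Both hippocampus arrays were above both forebrain arrays. Its tissue difference was 0.35 after ethanol and 0.15 after PBS (limma 0.25, SE 0.068, adjusted p = 0.147), the highest among the kept members after ethanol. Cdh11, found in mesenchyme and in neurons, read 10.46 in ethanol hippocampus, against 10.30 in PBS hippocampus, and 10.32 in ethanol forebrain, against 10.33 in PBS forebrain, so that 1 array stood above 3 that lay within 0.03. Cdh10, Cdh22 and Cdh24 had hippocampal ethanol differences of -0.08, 0.12 and -0.08. For Cdh24 a second probe set, below the filter value, gave 0.29. Cdh13 (T-cadherin), which is anchored by a lipid and has no cytoplasmic tail, read 9.26 in ethanol hippocampus, against 9.16 in PBS hippocampus, and 9.16 in ethanol forebrain, against 9.14 in PBS forebrain.

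Delta protocadherins were divided in hippocampus after ethanol: 4 of 7 read higher and 3 lower (median 0.03). Of all kept genes, 30.7% read higher and 69.3% lower (median -0.08). With arrays centred on the median of the kept genes, 5 of the 7 were higher (median 0.13, all kept genes 0.02). Pcdh17 (probe set 10416700), which organises presynaptic terminals of corticostriatal pathways, had the largest ethanol difference of all kept members. It read 9.61 in ethanol hippocampus, against 9.09 in PBS hippocampus, and 9.68 in ethanol forebrain, against 9.55 in PBS forebrain. Here too PBS hippocampus was the low array, and the other arrays lay within 0.13 of each other. The difference after ethanol was 0.52 in hippocampus (1.43-fold) and 0.13 in forebrain, with limma's 0.32 over both (SE 0.098, adjusted p = 0.51). In hippocampus it was 0.60 after quantile normalization and 0.62 with arrays centred on the median of the kept genes (an alternative chosen after seeing the data), past the 1.5-fold mark in both.

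Pcdh10, which guides axons through the ventral forebrain, read 9.83 in ethanol hippocampus, against 9.49 in PBS hippocampus, and 9.79 in ethanol forebrain, against 9.75 in PBS forebrain. Pcdh19, an X-linked gene mutated in a human epilepsy of girls, read 8.89 in ethanol hippocampus, against 8.63 in PBS hippocampus, and 9.06 in ethanol forebrain, against 9.01 in PBS forebrain. PBS hippocampus lay below ethanol hippocampus in both genes, by 0.34 for Pcdh10, whose other arrays were close to each other, and by 0.26 for Pcdh19. Both hippocampus arrays of Pcdh19 lay below both forebrain arrays. Its tissue difference was -0.17 after ethanol and -0.38 after PBS (limma -0.27 over both, SE 0.084, adjusted p = 0.186). Pcdh18 read 9.42 in ethanol hippocampus, against 9.61 in ethanol forebrain, and 9.39 in PBS hippocampus, against 9.61 in PBS forebrain (limma for tissue -0.21, SE 0.068, adjusted p = 0.22). Its hippocampal ethanol difference was 0.03 on the deposited scale, 0.10 after quantile normalization and 0.13 centred on the kept genes. The tissue difference of Pcdh18 after ethanol was -0.19, -0.14 and -0.10 in the same order.

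Pcdh7, whose cytoplasmic tail binds a protein phosphatase, had the low array of Cdh12. It read 9.15 in ethanol hippocampus, against 9.38 in PBS hippocampus, and 9.58 in ethanol forebrain, against 9.46 in PBS forebrain. Ethanol hippocampus was the low array, 0.43 below ethanol forebrain. Pcdh8 (arcadlin), which removes N-cadherin from synapses on neuronal activity, read 8.30 in ethanol hippocampus, against 8.50 in PBS hippocampus, and 8.48 in ethanol forebrain, against 8.52 in PBS forebrain. Pcdh9, a delta protocadherin of cortical neurons, had hippocampal ethanol differences of -0.08 and -0.13 in its 2 probe sets. Pcdh8, Pcdh17, Pcdh20 and Pcdh9 follow each other on chromosome 14 with 1, 2 and 0 protein-coding genes between them, and their hippocampal ethanol differences were -0.20, 0.52, -0.19 and -0.08.

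Of the other non-clustered protocadherins, Pcdh15, a component of hair cell tip links, read 7.66 in ethanol hippocampus, against 7.33 in PBS hippocampus, and 7.87 in ethanol forebrain, against 7.80 in PBS forebrain. The hippocampal ethanol difference of 0.33 was not shared by its other probe set, which gave -0.01 at levels of 6.94 and 6.95. Pcdh20 read 7.92 in ethanol hippocampus, with the other arrays between 8.10 and 8.14.

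**Figure D2:**
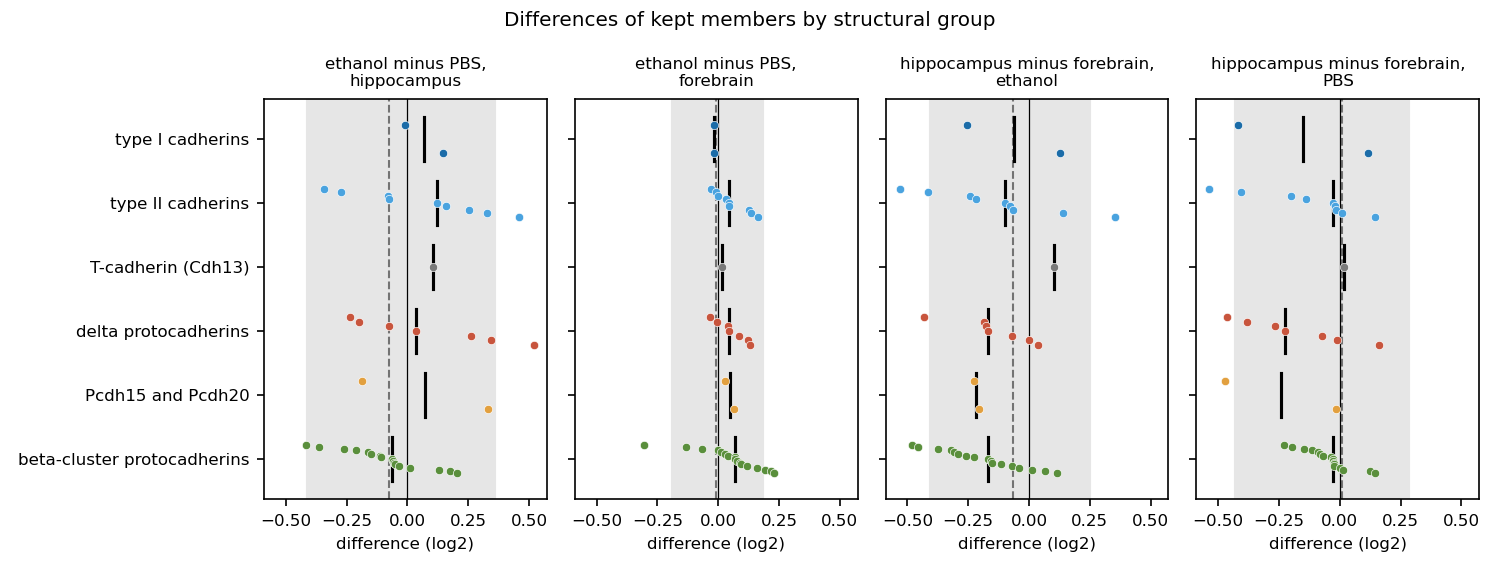
Differences (log2, horizontal axes) of the 38 kept members, 1 point a gene, in each of the 4 comparisons; black bars are group medians, the dashed line the median and the grey band the central 95% of all 11013 kept genes. In forebrain the ethanol differences of members lie between -0.31 and 0.23, against -0.42 to 0.52 in hippocampus.

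The low array divided the members. PBS hippocampus was the lowest of the 4 arrays for 12 of 38 members, or 31.6%, against 19.9% of all kept genes. These were Cdh4, Cdh7, Cdh11, Cdh18, Cdh22, Pcdh10, Pcdh15, Pcdh17, Pcdh18, Pcdh19, Pcdhb4 and Pcdhb10. Ethanol hippocampus was the lowest for 19, or 50%, against 50.2%. Of these 19, 12 were genes of the beta cluster, which held 17 of the 38 members. Lowest and highest arrays were counted on the deposited scale, where ethanol hippocampus had the lowest median over kept genes (8.57, the others 8.66 to 8.68). Centred on the kept genes, Cdh10, Cdh24, Pcdhb3, Pcdhb7, Pcdhb8, Pcdhb11 and Pcdhb20 were higher in hippocampus after ethanol. Ethanol hippocampus was then no longer their lowest array. Nor was it for Pcdhb21, then lowest in ethanol forebrain, or for Pcdhb2, then lowest in PBS forebrain. Ethanol forebrain was the highest array for 21 members, or 55.3%, against 25.3%, PBS forebrain for 9, or 23.7%, against 23.3%, and PBS hippocampus the highest for 2 (Cdh2 and Pcdh9), or 5.26%, against 38.5%. The hippocampal ethanol difference and the tissue difference after PBS share the PBS hippocampus array, so a gene low on that array is high in one and low in the other. Past 0.32 on the log2 scale, 6 members were lower in hippocampus than in forebrain after PBS (Cdh4, Cdh7, Cdh18, Pcdh15, Pcdh17 and Pcdh19), or 15.8%, against 4.57%, and 0 were higher, against 1.53%. After ethanol 6 others were lower (Cdh6, Cdh12, Pcdh7, Pcdhb16, Pcdhb18 and Pcdhb19), or 15.8%, against 5.48%, and Cdh8 was higher, or 2.63%, against 1.2%.

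Markers of other cells and regions were read on these arrays too. Of all kept genes, 30.7% were higher and 69.3% lower in hippocampus after ethanol. Thalamic markers were higher in hippocampus after ethanol for 7 of 8 genes, with mean levels of 8.44 on the ethanol array and 8.02 on the PBS array, against 8.65 and 8.45 in forebrain, so that PBS hippocampus was their low array too. Markers of the GABAergic lineage were higher for 8 of 10, at means of 9.57 and 9.29 on the ethanol and PBS hippocampus arrays and 9.52 and 9.58 on those of forebrain. Calb2 was counted both here and among the thalamic markers, and Lhx9 among both thalamic and hippocampal field markers. Excitatory cortical neuron markers were lower for 9 of 10, at means of 9.28 after ethanol and 9.68 after PBS in hippocampus, and 9.43 and 9.52 in forebrain. Striatal projection neuron markers were higher for 11 of 11, at 9.12 and 8.71 in hippocampus and 8.55 and 8.59 in forebrain after ethanol and PBS. Meningeal markers, given above by array, were higher for 7 of 9. Choroid plexus markers were lower for 7 of 7, with means of 8.12 and 8.50 in hippocampus and 8.08 and 8.03 in forebrain. Endothelial markers were lower for 6 of 7, with 8.20 and 8.33 against 8.45 and 8.53 in forebrain. Their median ethanol difference in hippocampus, -0.09, was near the -0.08 of all kept genes. The part of these cell types in the member differences was not tested, and in bulk tissue fewer cells of a type and less RNA per cell cannot be told apart.

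The beta cluster supplied 17 of the 38 kept members and all 22 of its genes were measured. These neighbouring genes resemble each other in sequence, so their probe sets may share signal and their values are uncertain as measures of single genes. Over the 17 kept genes the levels had medians of 7.60 in ethanol hippocampus, 7.75 in PBS hippocampus, 7.82 in ethanol forebrain and 7.79 in PBS forebrain. Pcdhb7 read 8.71 in ethanol hippocampus, against 8.74 in PBS hippocampus, and 8.86 in ethanol forebrain, against 8.77 in PBS forebrain. In hippocampus 13 of 17 read lower after ethanol and 4 higher (median -0.06), near the -0.08 of all kept genes, of which 69.3% were lower. With arrays centred on the median of the kept genes, 9 were higher and 8 lower. In forebrain 13 genes of the cluster read higher and 4 lower (median 0.07, all kept genes -0.01), and 14 against 3 under each scaling alternative. Of all kept genes 46.1% read higher and 53.8% lower there on the deposited scale. Ethanol hippocampus lay below ethanol forebrain for 14 of 17 (median -0.17), against 69.6% of all kept genes (median -0.06). Under those scalings it did so for 12 to 14 of the 17.

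**Figure D3:**
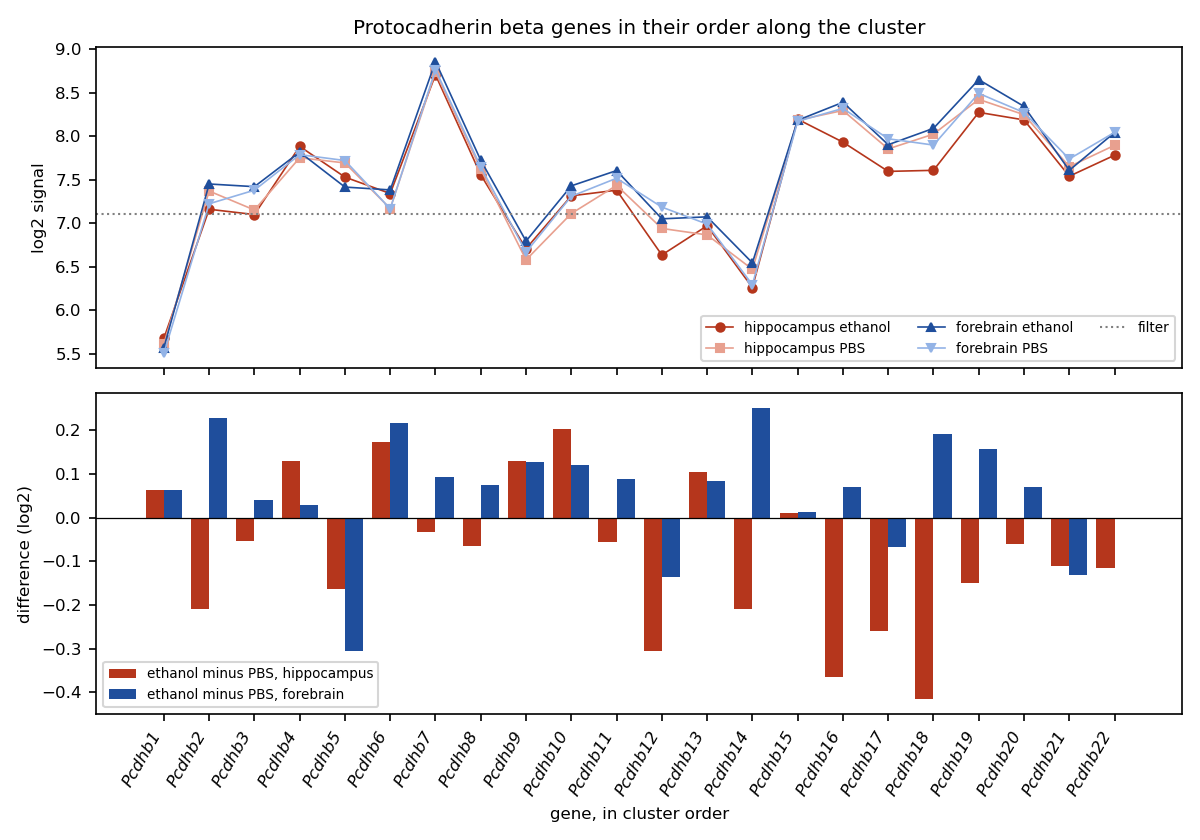
The 22 protocadherin beta genes in their order along the cluster, with log2 signal on the 4 arrays (top; dotted line, the filter value of 7.11) and the ethanol minus PBS difference in each tissue (bottom). Ethanol hippocampus lies below the other arrays at Pcdhb16, Pcdhb17, Pcdhb18 and Pcdhb19.

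Among the kept genes of the cluster, Pcdhb18 and Pcdhb16 had the widest ranges over the arrays. Pcdhb18 read 7.61 in ethanol hippocampus, against 8.03 in PBS hippocampus, and 8.09 in ethanol forebrain, against 7.90 in PBS forebrain, an ethanol difference of -0.42 in hippocampus (0.75-fold) and 0.19 in forebrain. Pcdhb16 read 7.93 in ethanol hippocampus, against 8.30 in PBS hippocampus, and 8.39 in ethanol forebrain, against 8.32 in PBS forebrain. For Pcdhb16 3 arrays lay within 0.09 and ethanol hippocampus stood below them, and for Pcdhb18 the same array was lowest with the others within 0.19. Pcdhb17 read 7.60 and 7.86 in hippocampus after ethanol and PBS, and 7.90 and 7.97 in forebrain. Pcdhb19 read 8.28 and 8.43 in hippocampus after ethanol and PBS, and 8.65 and 8.49 in forebrain. All 7 genes from Pcdhb16 to Pcdhb22 were lower in hippocampus after ethanol (median -0.15), as were 8 of the 15 genes from Pcdhb1 to Pcdhb15 (median -0.03) and 69.3% of all kept genes (median -0.08), a division chosen after the values were seen. With quantile normalization, or with arrays centred on the kept genes, 6 of the 7 were lower.

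Elsewhere in the cluster single genes stood out in forebrain. Pcdhb5 read 7.53 in ethanol hippocampus, against 7.69 in PBS hippocampus, and 7.42 in ethanol forebrain, against 7.72 in PBS forebrain. It was lower on the ethanol array of both tissues, by 0.16 and 0.31, and limma gave -0.23 over both (SE 0.087, adjusted p = 0.51). Pcdhb2 read 7.16 in ethanol hippocampus, against 7.37 in PBS hippocampus, and 7.45 in ethanol forebrain, against 7.22 in PBS forebrain, so that its ethanol differences were opposite in sign, -0.21 and 0.23. Pcdhb6 was higher after ethanol in both tissues, with 7.34 against 7.17 in hippocampus and 7.38 against 7.17 in forebrain (limma 0.20, SE 0.084, adjusted p = 0.514). Pcdhb10 was higher by 0.20 in hippocampus and 0.12 in forebrain, and Pcdhb21 differed by -0.11 and -0.13. Pcdhb4 differed by 0.13 and 0.03. Pcdhb15 read between 8.17 and 8.20 on all 4 arrays, the narrowest range among the kept members.

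**Figure D4:**
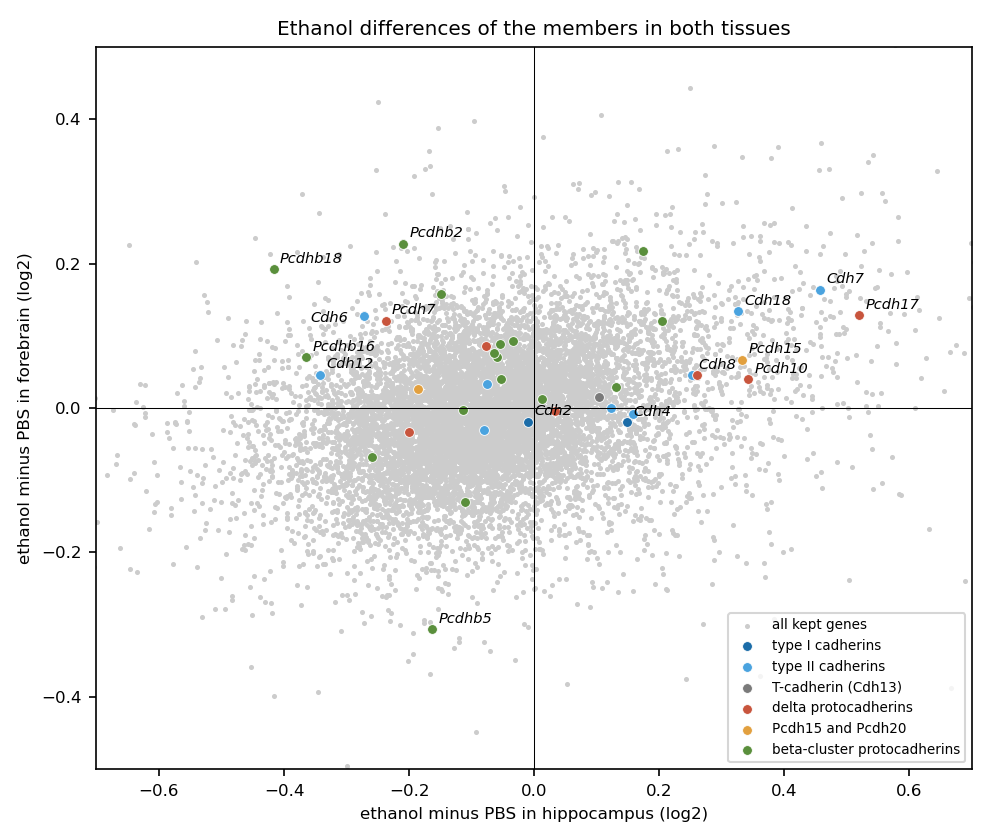
Ethanol minus PBS difference (log2) in hippocampus (horizontal) against forebrain (vertical) for the 38 kept members, coloured by group, over all kept genes in grey; 61 kept genes lie outside the axes. Pcdh17, Cdh7 and Cdh18 are higher after ethanol in both tissues, whereas Pcdhb18, Pcdhb2, Cdh6 and Pcdh7 are lower in hippocampus and higher in forebrain.

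Over all members, 16 of 38 were higher and 22 lower in hippocampus after ethanol, or 42.1% and 57.9%, against 30.7% and 69.3% of all kept genes. With arrays centred on the kept genes, where the median difference of all kept genes was 0.02, 25 members were higher and 13 lower. In forebrain 27 were higher and 11 lower, or 71.1% and 28.9%, against 46.1% and 53.8%. Hippocampus read below forebrain for 30 of 38 after ethanol (78.9%, against 69.6%) and above it for 8 (21.1%, against 30.4%). After PBS it read below forebrain for 29 of 38 (76.3%, against 47.5%) and above it for 9 (23.7%, against 52.4%).

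Genes whose products act with cadherins were read in hippocampus after ethanol too, where 30.7% of all kept genes were higher and 69.3% lower (median -0.08). Of 12 kept catenins and junction partners, 5 were higher and 7 lower (median -0.02). Nectin3, a nectin of adherens junctions, differed by -0.23, Ctnna1, alpha-catenin of epithelia and progenitors, by -0.20 and Nectin1 by 0.18, while beta-catenin (Ctnnb1) read 11.58 and 11.59 after ethanol and PBS. Of 11 kept large atypical cadherins and calsyntenins, 5 were higher and 6 lower (median -0.11). Clstn2, a calsyntenin of synapses, differed by -0.49 and Fat4, a planar polarity cadherin, by -0.42. Cdhr1, a photoreceptor cadherin, differed by 1.86, the highest of all kept genes, on a PBS hippocampus reading of 6.13, below the filter value. Its other arrays read 7.99 in ethanol hippocampus, 7.79 in ethanol forebrain and 7.96 in PBS forebrain. None of the kept genes of this and the other partner lists passed the limma test for ethanol, where the lowest adjusted p among those named was 0.51.

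Among the enzymes that cut cadherins, 1 of 6 was higher and 5 lower (median -0.11), against 30.7% and 69.3% of all kept genes. Subunits of gamma-secretase, which releases cadherin tails within the membrane, were among them, with Aph1a at -0.38, Psenen at -0.18 and Ncstn at -0.11. Regulators of protocadherin promoter choice and the kinases bound by protocadherins were lower for 8 of 8 (median -0.08, that of all kept genes -0.08), with the kinase gene Ptk2b at -0.37, the cohesin gene Smc1a at -0.15 and the cohesin loader gene Nipbl at -0.09. The WAVE complex, an actin regulator recruited by delta protocadherins, had 3 of 8 higher and 5 lower (median -0.02), with Wasf2 at -0.19, Abi1 at -0.13 and Abi2 at -0.08. In forebrain the medians of the 5 lists after ethanol were -0.02, -0.05, 0.03, -0.01 and 0.00 in the order given.

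The 17 members below the filter had means from 4.23 to 7.09. They were Cdh1, Cdh3 and Cdh15 (means of 6.35 to 6.93), Cdh9, Cdh19 and Cdh20 (4.23 to 7.09), Cdh16, Cdh17, Cdh23 and Cdh26 (5.00 to 6.31), Pcdh1 and Pcdh12 (6.46 and 7.01), and Pcdhb1, Pcdhb9, Pcdhb12, Pcdhb13 and Pcdhb14 (5.59 to 6.97). Nearest to the value of 7.11 were Cdh20 at 7.09 on the lower side and Pcdhb3 and Pcdhb6 at 7.26 on the upper. Among these dim genes Cdh1 (E-cadherin), which joins epithelial cells, read 6.88 in ethanol hippocampus, against 7.06 in ethanol forebrain, and 6.58 in PBS hippocampus, against 7.20 in PBS forebrain. Cdh23, the tip link partner of Pcdh15, read 6.48 in ethanol hippocampus, against 5.98 in PBS hippocampus, and 6.34 in ethanol forebrain, against 6.45 in PBS forebrain. Cdh9, which specifies synapses of hippocampal mossy fibres, read 7.01 and 6.91 in hippocampus after ethanol and PBS, and 7.27 and 6.99 in forebrain. Another 4 probe sets carried a member's symbol together with others, among them 1 listed under 14 genes of the alpha cluster, and were left out.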

How the data were processed

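Expression was measured on 1 Affymetrix array per group. The log2 values per probe set are those the authors deposited. MAS5 is named per the submitters' processing notes, with no version, background correction or normalization stated. The labels do not state the scale, which was read from the values (1.58 to 13.96). A plan for linear signals was set aside, so no pseudocount was added. Signal is not scaled by probe or transcript length, so levels of different genes are read only as array signal.

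Of 35557 probe sets, 21789 had 1 gene symbol in the platform annotation, 1621 several and 12147 none, and only the first were named. All 55 members were found by gene identifier in RefSeq (GRCm38.p6), which gave chromosomes, gene order and promoter windows. The files name no genome build.

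Within a tissue or treatment, the difference of 2 log2 values was counted past 1.5-fold, without a test, a log2 mark of 0.32 and 2-fold being the alternatives. limma 3.58.1 in R 4.3.3 was fitted to all 4 arrays and 11013 genes with treatment and tissue terms, a trended eBayes prior and a Benjamini-Hochberg adjusted p of 0.05 as threshold. The spread behind these p-values comes from 4 arrays and may be technical. It was drawn mostly from the trend over all kept genes (6.53 prior degrees of freedom), against 1 residual degree of freedom of the gene itself. Other steps used pandas 2.3.3, numpy 2.4.6 and matplotlib 3.10.9 under Python 3.11.15. Alternatives were other scalings, filters, probe set rules and fits.

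The members and the gene lists were chosen with earlier results of these data known. Genes were named by a rule: the 8 highest and 8 lowest ethanol differences in hippocampus, the 4 and 4 in forebrain, the 6 and 6 tissue differences in each treatment, the 6 highest levels, any member past 1.5-fold or called by limma, and 3 genes of each partner list. Others named here were chosen after their values were seen. Marker lists cover hippocampal fields, striatal projection neurons, thalamus, GABAergic lineage, excitatory cortical neurons, meningeal fibroblasts, endothelial cells and choroid plexus.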

Additional observations from a re-analysis of the deposited data

Results flagged for a closer look

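For 6 of the 26 members named by the rule, ethanol read below PBS in hippocampus and above it in forebrain, on the deposited scale by more than the median disagreement between probe sets of a gene in each tissue. The opposite signs remained with arrays centred on the kept genes, where the hippocampal value of Pcdhb19 was -0.05, less than that disagreement. A high percentile of the disagreement between probe sets was 0.26 in hippocampus and 0.16 in forebrain. On the deposited scale only Pcdhb18 (-0.42 and 0.19) passed it in both tissues. The rule picks members largely by the size of these same differences. The share of all kept genes with such opposite signs was not counted, so the 6 members have no background to be read against. With 1 array per group the difference between the tissues was not tested. The hippocampal minus the forebrain ethanol difference was -0.608 for Pcdhb18, -0.437 for Pcdhb2, -0.435 for Pcdhb16, -0.399 for Cdh6, -0.358 for Pcdh7 and -0.307 for Pcdhb19. No group had the number of arrays needed to look for an outlying one.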

How the results depend on the processing

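No paired analysis was possible because each group is 1 array and the labels give no replicate numbers. No array was left out in turn, since 3 arrays leave the additive fit no residual degrees of freedom. The 1.5-fold count in hippocampus after ethanol became 1 higher (Pcdh17) with quantile normalization and 1 with arrays centred on the kept genes, an alternative added after seeing the data. Without a filter 1 member (Cdh1) was 1.5-fold lower in hippocampus than forebrain after PBS. Past 0.32 on the log2 scale the counts were 5 higher and 3 lower in hippocampus after ethanol, 1 higher and 6 lower between tissues after ethanol, and 6 lower after PBS. At 2-fold they were 0.

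Counts by sign moved with the number of members and with the scaling. With the 75th percentile filter, which kept 14 members, they were 8 higher and 6 lower for ethanol in hippocampus, 10 and 4 in forebrain, and 5 and 9 between tissues after ethanol and again after PBS. Without a filter 30 were higher in hippocampus and 18 lower in forebrain after ethanol, and 17 were higher in hippocampus than forebrain after ethanol. Centred on the kept genes, 25 were higher and 13 lower in hippocampus and 5 lower in forebrain after ethanol, and 14 were higher between tissues after ethanol. Centred on all probe sets, 5 were higher in hippocampus after PBS. With limma, 1 member (Cdh4) fell between tissues after quantile normalization (-0.321) and with the 75th percentile filter (-0.337), and 0 members were called for ethanol in any setting run. Over all genes limma called 0 for ethanol, but 14 after quantile normalization, 7 with the 75th percentile filter and 2 centred on the kept genes. For tissue it called 124, and 416 after quantile normalization, 190 centred on all probe sets, 66 centred on the kept genes, 37 without a filter, 27 without a trend and 0 without a treatment term.

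Group medians moved in several settings. With arrays centred on the kept genes, those for ethanol in hippocampus were 0.168 for type I cadherins, 0.221 for type II, 0.203 for Cdh13, 0.133 for delta protocadherins, 0.172 for Pcdh15 with Pcdh20, and 0.0354 for the beta cluster. Between tissues after ethanol they were 0.0257, -0.0116, 0.194, -0.0785, -0.127 and -0.0787 in the same order. Quantile normalization gave 0.186 for Cdh13 in hippocampus after ethanol. Without a filter the hippocampal ethanol medians were 0.148 for type I cadherins, 0.147 for delta protocadherins and 0.17 for the other non-clustered ones, and the type I median between tissues after ethanol was 0.0167. After PBS the type II median between tissues was then -0.0836 and that of the other non-clustered ones -0.0142. The cause was not tested beyond the change in scaling or genes counted.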
